A study of Rattus norvegicus with 12 samples.

Results

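Axon guidance ligands and receptors were followed in neuroglial cultures that had received the secreted products of human glial progenitor cells. The genes were chosen by name, as the semaphorins of classes 3 to 7, plexins, Nrp1 and Nrp2, Eph receptors, ephrins, Robo1 to Robo4, Slit1 to Slit3, netrins, Unc5 receptors, Dcc, Rgma and Rgmb. This rule took 75 of the 28111 gene names in the files, and 64 of them had a mean of at least 1 TPM (transcript abundance within a library, corrected for transcript length) over the 12 libraries and were tested. Unc50 and Unc5cl match only by spelling and are not guidance genes, so 73 of the 75 names, and 63 of the 64 tested, belong to the guidance families.

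Growing axons are steered by secreted and membrane-bound cues that receptors on the growth cone read as attraction or repulsion. Semaphorins signal through plexins, with neuropilins as co-receptors for most class 3 members. Ephrins signal through Eph receptors at cell contacts, Slits repel axons through Robo receptors, netrin 1 acts through Dcc and Unc5, and repulsive guidance molecules act through neogenin. In the postnatal cortex many of these genes remain expressed and also serve in dendrite and synapse formation and in astrocyte contacts.

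The libraries came from primary neuroglial cultures of Wistar rat cerebral cortex, treated at day 10 in vitro and lysed 4 h later, with 3 libraries per group. The groups were the intact control (IC), extracellular vesicles (EV) at 10 µg/mL, proteins of 3–100 kDa (P3_100) at 15 µg/mL and total secretome (TS) at 45 µg/mL, all 3 preparations coming from glial progenitor cells derived from human induced pluripotent stem cells, and the doses differ between them. No animal or culture carried a genetic change. The pups were of postnatal day 0 by the labels and of days 1 to 2 by the study's methods, which also state that cytosine arabinoside was given to the cultures to limit glial growth. The study's methods describe repeats on unrelated cultures, and its supplement removes a day effect from a plot of IC and EV, but the culture, litter and day of each library are not given in the sources used here. The p-values therefore measure the spread between these libraries, part of which may be technical.

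The 8 neuronal markers summed to between 2870 and 3742 TPM in the 12 libraries, and the 8 astrocyte markers to between 833 and 1572 TPM. The 6 microglial markers summed to at most 1.97 TPM and the endothelial markers to at most 0.495 TPM. Astrocyte markers summed to 833–1133 TPM in IC, 1131–1517 TPM after EV, 958–1425 TPM after P3_100 and 1129–1572 TPM after TS, with 0 of the 8 past the correction in limma in any comparison with IC (1 at an unadjusted p under 0.05, after EV). Neuronal markers spanned 3496–3742 TPM in IC, 3372–3723 TPM after EV, 2946–3536 TPM after P3_100 and 2870–3671 TPM after TS, and 1 of the 8, Nefm, was higher at an FDR under 0.05 after P3_100. After TS 2 of the 8 were higher at an unadjusted p under 0.05. Of excitatory cortical neuron markers 6 were tested, with sums of 269–489 TPM in the 12 libraries. None of the 6 differed from IC by limma at an unadjusted p under 0.05. The 6 inhibitory neuron markers summed to 650–827 TPM, with 0 under that p against IC. The 7 oligodendrocyte lineage markers summed to 76.7–176 TPM, and of the 6 tested 1 was lower after P3_100 and 1 higher after TS at that p. The 6 fibroblast or meningeal markers summed to 1.85–4.70 TPM. Pdgfrb, the only one tested, was lower after P3_100 at an FDR under 0.05 (log2 fold change −1.43). It was also lower after EV (−0.90) and TS (−0.92) at an unadjusted p under 0.05. The part of these cell types in the results that follow was not tested. In bulk RNA, fewer cells of a type and less RNA per cell cannot be told apart. The unit of the files keeps no read depth, so depth is unknown, and a listed 0 may be a failed estimate, as every library lists Rps6, a ribosomal protein gene, at 0.

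The 64 tested genes stood at a median of 18.6 TPM in IC, against 17.4 TPM for all 12861 genes tested. Their IC means ran from 1.13 to 150 TPM, and 42 genes reached 10 TPM and 6 reached 50 TPM. The most abundant was the ephrin ligand Efnb3, at 163, 157 and 131 TPM in IC replicates 1 to 3, followed by Efnb2 at 80.9 ± 15.3 TPM (SD, n = 3), the receptor Epha4 at 74.7 ± 16.7 TPM, the membrane-anchored netrin Ntng2 at 70.1 ± 23.5 TPM and Epha5 at 62.7 ± 11.2 TPM. The last 4 lay within 1 SD of their neighbours in this order, while the lowest Efnb3 library exceeded every Efnb2 library. Netrin 1 itself stood at only 2.93 ± 0.470 TPM, below its receptors Dcc (8.91 ± 3.23 TPM), Unc5a (13.2 ± 1.12 TPM), Unc5c (8.10 to 17.7 TPM) and Unc5d (12.6 ± 2.86 TPM) and near Unc5b (2.62 ± 0.207 TPM).

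**Figure D1:**
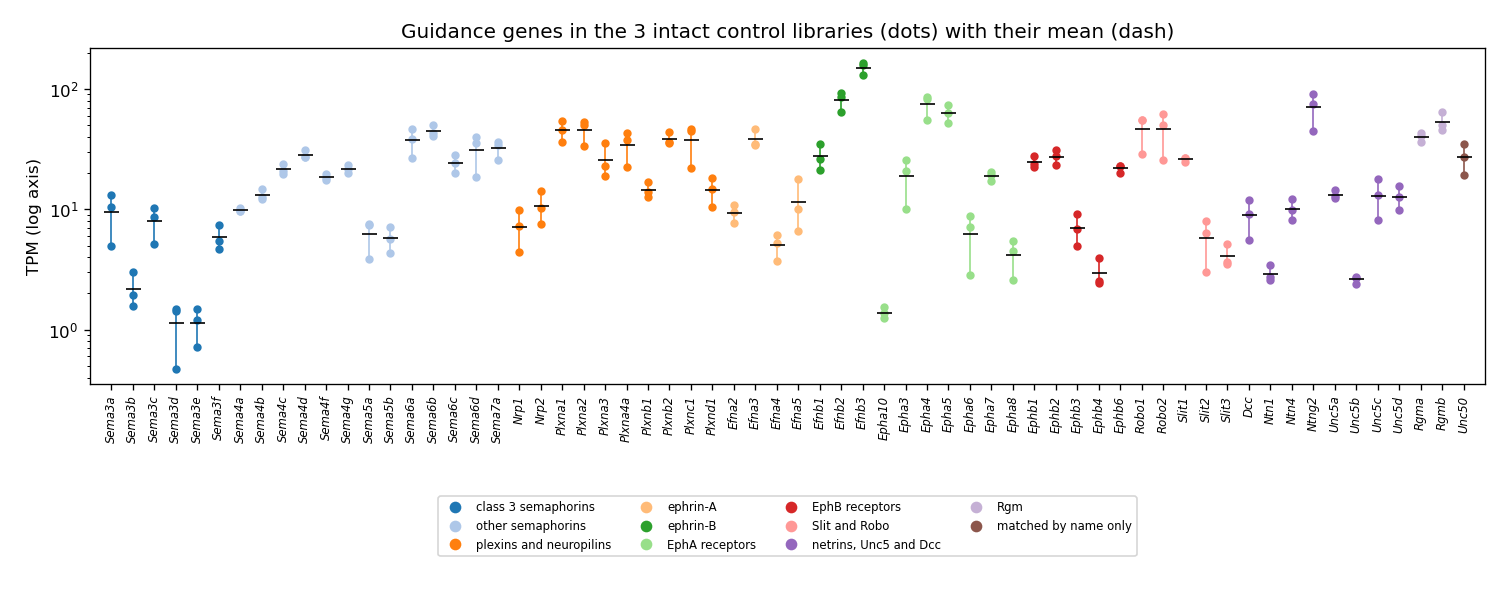
Levels of the 64 tested genes in the 3 intact control libraries (dots, TPM on a log axis) with the mean as a dash and genes grouped by family. Efnb3 is highest, with a mean of 150 TPM, and the class 3 semaphorins Sema3d and Sema3e are lowest, near 1.13 TPM.

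Levels varied within families. Among semaphorins, the membrane-bound members Sema6b (44.4 ± 4.82 TPM), Sema6a (37.3 ± 9.98 TPM) and Sema7a (32.0 ± 5.42 TPM), the last one anchored by a lipid, exceeded the most abundant secreted class 3 members, Sema3a (9.56 ± 4.20 TPM) and Sema3c (8.04 ± 2.62 TPM), whereas the transmembrane Sema5a (6.28 ± 2.08 TPM) and Sema5b (5.73 ± 1.44 TPM) did not. Plexins A1 and A2, receptors for class 6 and, with neuropilins, class 3 semaphorins, reached 45.4 ± 8.68 and 45.5 ± 10.4 TPM. The Slit receptors Robo1 and Robo2 stood at 46.5 ± 15.3 and 46.2 ± 18.9 TPM, above Slit1 at 25.9 ± 0.985 TPM, Slit2 at 5.76 ± 2.51 TPM and Slit3 at 4.10 ± 0.900 TPM. Among Eph receptors of class B, Ephb2 had 27.4 ± 3.67 TPM and Ephb1 24.8 ± 2.74 TPM, and of ephrin-A ligands Efna3 had 38.5 ± 7.10 TPM and Efna5 11.5 ± 5.84 TPM.

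The 11 genes below the filter were Epha1, Epha2, Robo3, Robo4, Sema3g, Efna1, Unc5cl, Ntn3, Ntn5, Ntng1 and Plxnb3, of which Robo4, Unc5cl and Ntn5 were listed at 0 in all 12 libraries. Epha2, an Eph receptor best known from epithelia and glial tumours, had its P3_100 and TS libraries apart from IC. It was listed at 0.204, 0 and 0 TPM in IC, at 0.248, 0.155 and 0.254 TPM after EV, at 0.729, 1.61 and 1.90 TPM after P3_100 and at 0.639, 0.357 and 0.380 TPM after TS, so that every P3_100 and TS library lay above every IC library. With a filter of 0.1 TPM its log2 fold change after P3_100 was 1.16 (limma adjusted p = 0.0808), and it passed the F test over the 4 conditions (limma adjusted p = 0.0286). Epha2 was singled out after its values were seen.

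Across the 4 conditions together, 5 of the 64 genes differed at an FDR under 0.05 in limma's F test over the 12 libraries. These were Rgma, Sema6c, Ntn1, Sema4a and Epha4, and 4.48% of all genes tested passed the same threshold. At an unadjusted p under 0.05 there were 13 genes, against 14.7% of all genes. Fold changes below are on the log2(TPM + 1) scale after rescaling within the comparison, which understates the change of low genes, whereas levels are deposited TPM.

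Rgma, which had the lowest F test p of the guidance genes, encodes a lipid-anchored repulsive cue that acts through neogenin and limits axon growth. Its level was 43.3, 40.4 and 36.2 TPM in IC, 24.2, 27.1 and 25.1 TPM after EV, 15.9, 19.4 and 16.7 TPM after P3_100 and 30.9, 26.4 and 25.7 TPM after TS. Each of the 9 treated libraries was below all 3 IC libraries, and P3_100 libraries were below all EV and TS libraries. The F test gave an adjusted p of 0.000535 (limma), which stayed between 0.000964 and 0.00491 when any 1 library was omitted.

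Promoter windows are shown for 3 genes, chosen by the comparisons with IC. In the main fits Rgma and Sema6c were the genes that passed the correction, and Sema3c had the largest fold change. The windows run from 250 bases before to 50 bases after the annotated start (RefSeq, build GRCr8, which is not the build of the files), and 49 of the 64 tested genes had one. Capitals mark the letters GGGCGG, the GC box bound by Sp1-type factors, on either strand, and only the Rgma window of these 3 holds them. The Rgma window is chr1:136538532-136538831 (+), the Sema6c window chr2:185426236-185426535 (+) and the Sema3c window chr4:18699578-18699877 (-).
Rgma: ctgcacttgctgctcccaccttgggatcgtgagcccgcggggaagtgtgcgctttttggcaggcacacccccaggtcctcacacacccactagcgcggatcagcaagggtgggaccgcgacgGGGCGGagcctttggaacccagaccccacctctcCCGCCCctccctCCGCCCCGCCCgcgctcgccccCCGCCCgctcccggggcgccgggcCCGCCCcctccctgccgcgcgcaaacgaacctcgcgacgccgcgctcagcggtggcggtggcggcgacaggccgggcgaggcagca
Sema6c: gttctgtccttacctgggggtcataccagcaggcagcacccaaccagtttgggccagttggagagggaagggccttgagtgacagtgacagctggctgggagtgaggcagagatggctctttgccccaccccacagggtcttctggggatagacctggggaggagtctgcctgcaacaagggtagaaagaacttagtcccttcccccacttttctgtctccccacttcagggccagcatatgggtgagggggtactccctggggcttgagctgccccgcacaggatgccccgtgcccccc
Sema3c: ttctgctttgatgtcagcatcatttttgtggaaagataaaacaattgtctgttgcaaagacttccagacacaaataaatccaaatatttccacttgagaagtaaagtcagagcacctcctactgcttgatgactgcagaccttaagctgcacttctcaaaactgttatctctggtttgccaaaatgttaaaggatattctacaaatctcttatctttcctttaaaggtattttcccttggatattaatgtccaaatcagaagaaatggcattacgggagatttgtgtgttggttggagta

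The Rgma window held 37 CpG dinucleotides, 75% G and C and 6 GC boxes, while the Sema6c window held 2 CpG and the Sema3c window 1, neither with a GC box. Over the 49 guidance genes the median was 19 CpG and 64% G and C, against 7 CpG and 52.3% for all 27457 windows. A GC box stood in 27 of the 49, against 34.9% of all windows. The letters TGANTCA of the AP-1 motif stood in 1 of the 49 (7.33% of all windows), TTCNNNGAA of the STAT motif in 3 (8.68%), CACGTG of the E-box in 4 (6.65%) and TGACGTCA of the CRE in 0 (1.91%), all searched on both strands with GC boxes and other matches allowed to overlap. These matches describe letters in the windows and no binding was measured.

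After P3_100, Rgma and the semaphorin Sema6c fell and no guidance gene rose past the correction in the main fit. The question was which guidance genes differ after the 3–100 kDa proteins. At an FDR under 0.05, 2 of the 64 genes differed, both lower, and 0.443% of all genes were lower at this threshold and 2.41% higher. Rgma fell from 40.0 ± 3.58 to 17.3 ± 1.82 TPM (SD, n = 3), −1.13 ± 0.12 on the log2 scale (fold change ± SE, limma adjusted p = 0.00838, 95% interval −1.43 to −0.84). Sema6c, a transmembrane semaphorin that binds plexin A receptors, stood at 28.2, 24.0 and 20.2 TPM in IC, against 14.3, 12.4 and 10.7 TPM after P3_100, without overlap, −0.87 ± 0.14 on the log2 scale (fold change ± SE, limma adjusted p = 0.0331). Rgma did not pass without IC replicate 1 (adjusted p = 0.0634), P3_100 replicate 2 (0.0538) or P3_100 replicate 3 (0.0508), and Sema6c passed in none of the 6 omissions (0.0577 to 0.176) nor on TPM as deposited (0.0767). With the replicate number as a block, neither passed (limma adjusted p = 0.0753 for Rgma and 0.129 for Sema6c).

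A further 10 genes had an unadjusted p under 0.05 in the comparison of P3_100 with IC without passing the correction, so that 12 of 64 did (2 higher and 10 lower), against 10.1% of all genes higher and 7.09% lower. The higher pair were secreted cues. Sema3c, a class 3 semaphorin that attracts or repels axons depending on the neuron, was listed at 8.64, 5.17 and 10.3 TPM in IC, against 17.1, 29.7 and 22.7 TPM after P3_100, 1.46 ± 0.31 on the log2 scale (fold change ± SE, limma adjusted p = 0.0647). Ntn1, the netrin that attracts axons through Dcc and repels them through Unc5, was listed at 3.46, 2.56 and 2.76 TPM in IC, against 5.52, 7.62 and 5.56 TPM after P3_100, 0.90 ± 0.18 on the log2 scale (fold change ± SE, limma adjusted p = 0.0613). In both genes every P3_100 library exceeded every IC library. Sema3c passed the FDR with a filter of 1 TPM in 3 libraries (limma adjusted p = 0.0474) and Ntn1 with no mean-variance trend (0.0394). With all 12 libraries in 1 fit both passed (0.0104 for Sema3c and 0.00981 for Ntn1, limma), where 2 of the 64 genes rose and 5 fell past the FDR. Neither passed when any 1 library was omitted.

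The 10 on the lower side comprised Rgma, Sema6c, Sema4f, Epha4, Sema4a, Sema4b, Efna3, Sema4g, Plxnb1 and Epha10. Epha4, a receptor for both ephrin classes that mediates growth cone repulsion and astrocyte contacts at synapses, was at 82.7, 55.5 and 86.0 TPM in IC, against 37.5, 42.4 and 36.3 TPM after P3_100. The fold change was −0.88 ± 0.20 on the log2 scale (± SE, limma adjusted p = 0.0771). Without IC replicate 2, the lowest control library, it was −1.08 with an adjusted p of 0.0163 (limma). In the other omissions the fold change lay between −0.71 and −0.91 and the adjusted p between 0.162 and 0.262 (limma). Sema4f, a transmembrane semaphorin found at synapses, was at 18.4 ± 1.14 TPM in IC and 11.1 ± 1.73 TPM after P3_100 (limma adjusted p = 0.0628). Sema4a was at 9.75, 9.65 and 10.3 TPM in IC, against 6.88, 5.65 and 5.27 TPM after P3_100, −0.63 on the log2 scale (limma adjusted p = 0.107).

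By family, the fold changes after P3_100 lay mostly below 0. Of the 64 genes, 47 were below 0, with a median of −0.22, against a median of −0.02 over all genes tested, of which 52.8% were below 0. With 1 library left out the median of the guidance genes ran from −0.28 (without IC replicate 2) to −0.14 (without IC replicate 3). Marker medians after P3_100 were −0.06 for neurons, −0.08 for excitatory neurons, −0.04 for inhibitory neurons, 0.21 for astrocytes and −0.18 for the oligodendrocyte lineage, and their part was not tested. All 5 EphB receptors, 4 ephrin-A ligands and 3 ephrin-B ligands lay below 0, as did 6 of 7 EphA receptors and 11 of 13 semaphorins outside class 3, where the 2 exceptions were Sema5b and Sema6d. Of the 6 class 3 semaphorins 5 lay above 0, but their median was only 0.12 and Sema3c alone had an unadjusted p under 0.05. Their total was 49.3 TPM after P3_100 against 28.0 TPM in IC, most of it Sema3a and Sema3c. Sema3a was at 9.56 ± 4.20 TPM in IC and at 16.0 ± 5.95 TPM after P3_100, and its groups overlapped. Complete separation of P3_100 from IC was seen for 2 genes on the higher side (10.5% of all genes) and 17 on the lower side (9.77%), and 0.1 is the smallest two-sided exact permutation p for 3 against 3.

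**Figure D2:**
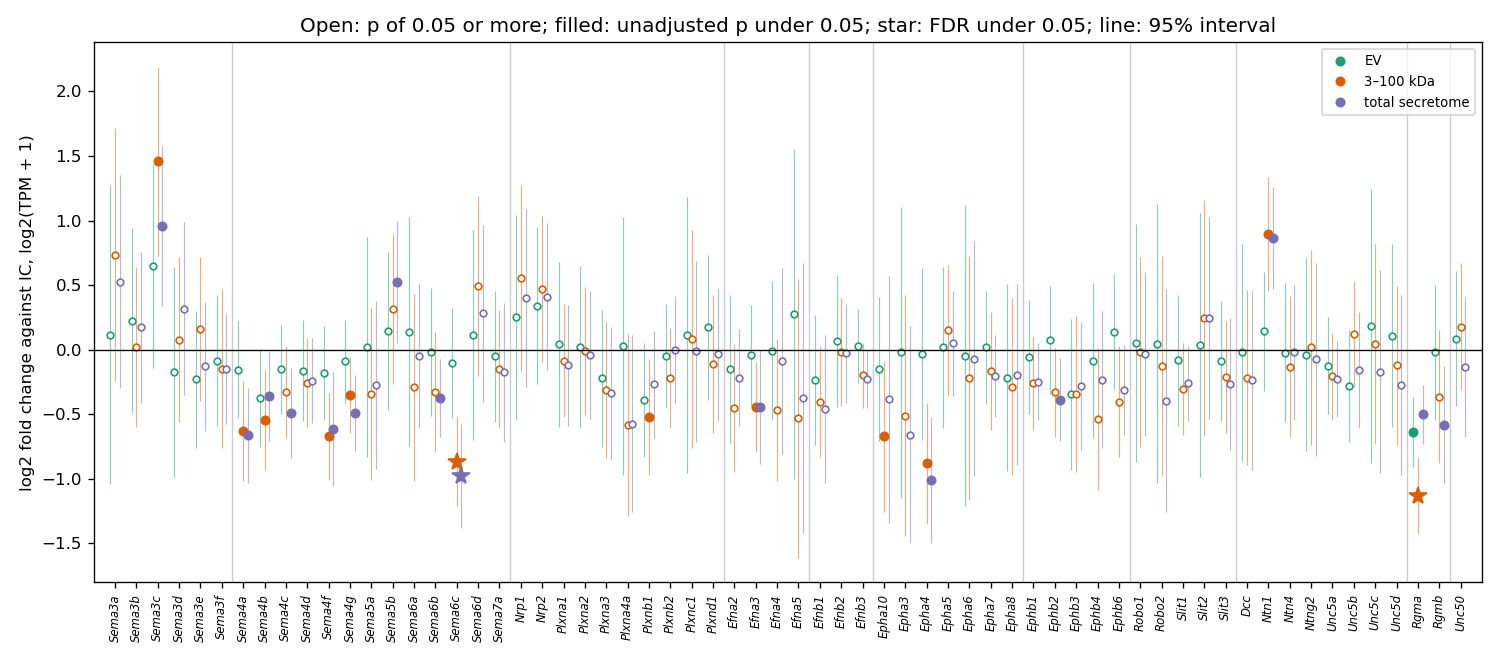
Log2 fold changes against IC on the log2(TPM + 1) scale for the 64 tested genes in family order after EV, 3–100 kDa proteins and total secretome, with 95% intervals as lines. Stars mark the 3 calls at an FDR under 0.05, which are Rgma and Sema6c after the 3–100 kDa proteins and Sema6c after total secretome.

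After TS, Sema6c was the single guidance gene past the correction in the main fit, and it fell. It stood at 12.8, 9.47 and 12.6 TPM after TS, below all 3 IC libraries, −0.98 ± 0.17 on the log2 scale (fold change ± SE, limma adjusted p = 0.0484, 95% interval −1.38 to −0.58). Of all genes, 0.233% were lower and 1.62% higher at this FDR. With the replicate number as a block, the adjusted p was 0.109 (limma). It lay between 0.0602 and 0.214 when any 1 of the 6 libraries was omitted, so the call held in none of these fits. Deviations of same-numbered TS and IC libraries correlated only weakly (0.22, 0.13 and 0.14), and no source states a pairing.

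At an unadjusted p under 0.05, 15 of 64 genes differed between TS and IC, 3 higher and 12 lower, against 9.91% of all genes higher and 6.97% lower. Ntn1 was listed at 6.37, 6.86 and 5.06 TPM after TS, above every IC library, 0.87 ± 0.17 on the log2 scale (fold change ± SE, limma adjusted p = 0.0661). Its adjusted p was 0.0403 with no mean-variance trend and 0.0167 with all 12 libraries in 1 fit (limma), and it passed in no omission. Sema3c was listed at 16.3, 17.2 and 14.2 TPM after TS, also above every IC library, 0.96 ± 0.26 on the log2 scale (fold change ± SE, limma adjusted p = 0.139). The third, Sema5b, a transmembrane semaphorin with thrombospondin repeats, was at 8.51 ± 1.35 TPM against 5.73 ± 1.44 TPM in IC (limma adjusted p = 0.257), and its groups overlapped. With the replicate number as a block, 14 genes had an unadjusted p under 0.05, 2 higher and 12 lower (18.4% of all genes in either direction). These included Efnb1 and Plxna4a but not Sema5b, Sema6b or Sema4b.

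In order of p in the main fit, Rgma followed Sema6c on the lower side after TS, at 27.7 ± 2.81 TPM against 40.0 ± 3.58 TPM in IC, −0.50 ± 0.09 on the log2 scale (fold change ± SE, limma adjusted p = 0.0646). Epha4, with the largest fall, was at 40.6, 31.3 and 35.5 TPM after TS, with every library below the lowest of IC, −1.01 ± 0.20 on the log2 scale (fold change ± SE, limma adjusted p = 0.0737). The adjusted p of Epha4 was 0.0267 without IC replicate 2 and between 0.155 and 0.290 in the other omissions (limma). Sema4a was at 6.72, 6.05 and 4.79 TPM after TS, below all IC libraries (log2 fold change −0.66, which did not pass), and Sema4g at 15.0 ± 2.08 TPM against 21.6 ± 1.46 TPM in IC (limma adjusted p = 0.121). The remaining 7 were Sema4c, Sema4f, Rgmb, Sema6b, Ephb2, Sema4b and Efna3. Rgmb, the other repulsive guidance molecule of the brain, was at 64.7, 50.2 and 45.9 TPM in IC, against 38.6, 43.1 and 24.9 TPM after TS, without overlap (limma adjusted p = 0.199), whereas after P3_100 1 library reached 57.7 TPM and the groups overlapped.

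Family directions after TS lay as follows. Of the 64 genes, 52 had a fold change below 0, with a median of −0.22 against −0.01 for all genes tested, of which 52.0% were below 0. With 1 library left out the median of the guidance genes ran from −0.28 (without IC replicate 2) to −0.12 (without IC replicate 3). Marker medians after TS were −0.11 for neurons, −0.23 for excitatory neurons, −0.08 for inhibitory neurons, 0.27 for astrocytes and 0.23 for the oligodendrocyte lineage, and their part in the result was not tested. All 12 EphB receptors and ephrins lay below 0, and 4 of 6 class 3 semaphorins lay above 0. The groups did not overlap in 2 genes on the higher side (11.4% of all genes) and 15 on the lower side (8.72%).

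**Figure D3:**
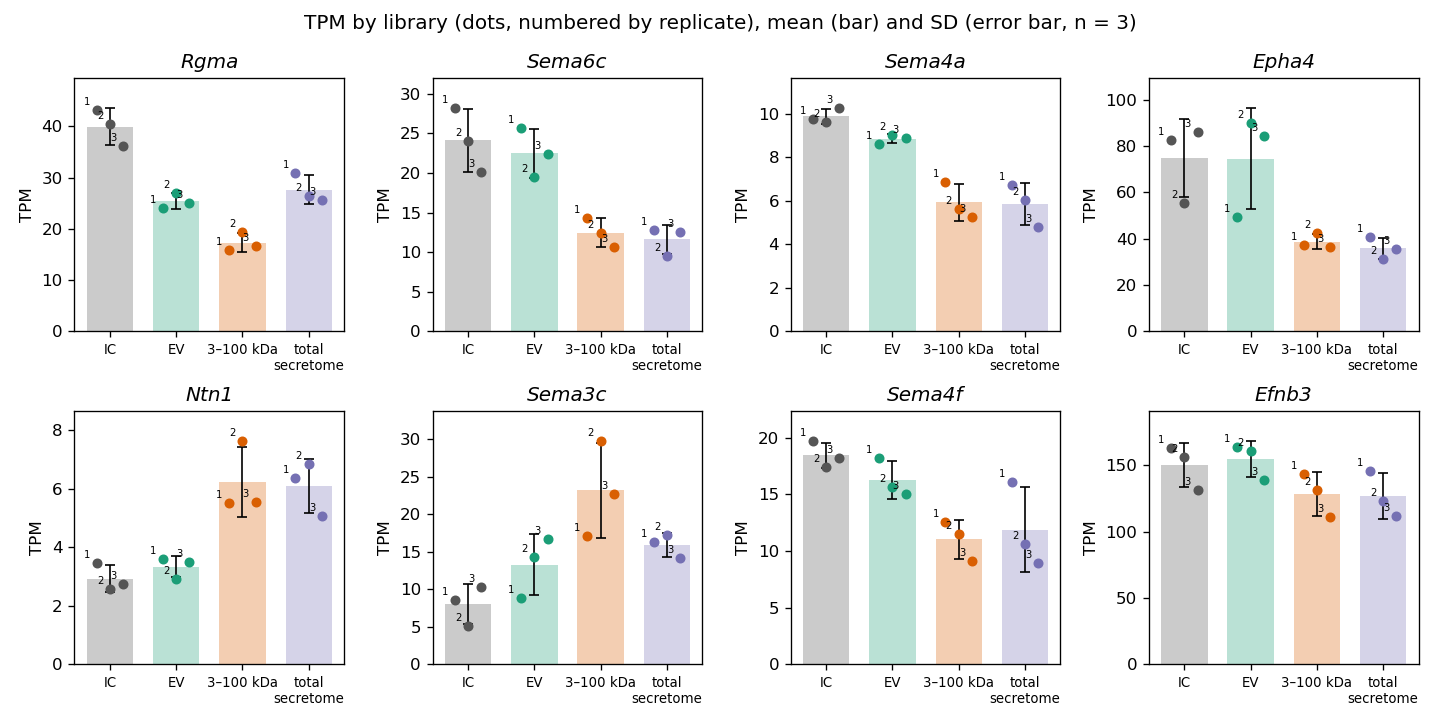
TPM of 8 guidance genes in every library (dots, numbered by replicate) with the mean as a bar and the SD as an error bar (n = 3). The treated libraries of Rgma all lie below IC, the P3_100 and TS libraries of Sema6c, Sema4a, Epha4 and Sema4f lie below IC, and those of Ntn1 and Sema3c lie above it.

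After EV no guidance gene passed the correction, and Rgma, lower than in IC, had the lowest p. Of the 64 genes 0 passed an FDR under 0.05 in limma, where 0.0933% of all genes did. At an unadjusted p under 0.05 there was 1, Rgma, against 2.97% of all genes. Rgma was at 25.5 ± 1.47 TPM after EV against 40.0 ± 3.58 TPM in IC, −0.64 ± 0.11 on the log2 scale (fold change ± SE, 95% interval −0.91 to −0.37, limma adjusted p = 0.239). When all 12 libraries were fitted together its adjusted p for EV against IC was 0.0195 (limma), and it passed in no other alternative. The adjusted p of Rgma was 0.969 with the replicate number as a block and lay between 0.375 and 0.960 when any 1 library was omitted (limma). The groups did not overlap in 4 genes, Rgma, Sema4b, Unc5b and Sema4a, all lower after EV (1.79% of all genes), and in 0 on the higher side (3.30%).

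The next genes by p after EV were Sema4b, Plxnb1 and Sema3c. Sema4b was at 14.7, 12.7 and 12.1 TPM in IC, against 10.9, 9.33 and 9.60 TPM after EV, −0.38 ± 0.16 on the log2 scale (fold change ± SE, limma adjusted p = 1). Plxnb1, the receptor of Sema4d, was at 14.4 ± 2.12 TPM in IC and 10.8 ± 2.03 TPM after EV. Sema3c was at 8.81, 14.3 and 16.7 TPM after EV, overlapping IC, with a log2 fold change of 0.65 and a 95% interval from −0.14 to 1.44. For Sema6c, Ntn1 and Epha4, which differed across the 4 conditions, the EV levels overlapped IC. The log2 fold changes were −0.10 (−0.53 to 0.32) for Sema6c, 0.14 (−0.32 to 0.60) for Ntn1 and −0.04 (−0.70 to 0.63) for Epha4, with the sign turning for Epha4 without IC replicate 1 (0.01), IC replicate 3 (0.13) or EV replicate 1 (0.21) and for Sema6c without EV replicate 2 (0.03), so intervals of this width leave room for differences in either direction.

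The preparations were also compared with each other, at unequal doses. Against P3_100, EV had 0 genes past the FDR in limma (0.373% of all genes) and 11 at an unadjusted p under 0.05 (9.89% of all genes), 8 higher and 3 lower after EV. Sema6c was at 25.6, 19.4 and 22.4 TPM after EV, above all P3_100 libraries, 0.78 ± 0.17 on the log2 scale (fold change ± SE, limma adjusted p = 0.194). Rgma was 0.51 higher (adjusted p = 0.253, limma) and Epha4 0.86 higher (adjusted p = 0.261, limma) on the log2 scale after EV, and Ntn1 had a fold change of −0.75 (adjusted p = 0.257, limma). EV replicate 1 of Epha4 (49.5 TPM) was well below the other 2 (89.8 and 84.1 TPM) but still above the highest P3_100 library (42.4 TPM). With the replicate number as a block, 20 genes had an unadjusted p under 0.05 (20.4% of all genes) and 0 passed the FDR, while 4 had that p without P3_100 replicate 2 (5.75% of all genes) and 5 without P3_100 replicate 3 (6.03%). Without EV replicate 1, Epha4 alone passed the FDR (adjusted p = 0.0356, limma), and it passed in no other omission.

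Between EV and TS there were 0 genes past the FDR in limma (0.132% of all genes) and 8 at an unadjusted p under 0.05 (8.16% of all genes), led by Sema6c (log2 fold change 0.89 after EV, standard error 0.20), Epha4 (0.98, standard error 0.22), Ntn1 (−0.71, standard error 0.18) and Sema4a (0.52, standard error 0.15), with limma adjusted p between 0.323 and 0.466. The block gave 15 at that p (9.84% of all genes). The tally was 22 without EV replicate 1 (21.4% of all genes), 5 without TS replicate 2 (4.10%) and 4 without TS replicate 3 (4.78%), and 8 or 9 in the other omissions (6.36% to 6.97%). Without EV replicate 1, Epha4 had an adjusted p of 0.0367 (limma), and it passed in no other omission.

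Between TS and P3_100, 0 guidance genes passed the FDR in limma (0.0156% of all genes) and 2 had an unadjusted p under 0.05 (2.84%). These were Rgma and Sema3c. Rgma was 0.64 higher after TS on the log2 scale (standard error 0.11, 95% interval 0.38 to 0.90, limma adjusted p = 0.918), with every TS library above every P3_100 library. For Sema3c the fold change was −0.49 ± 0.20 on the same scale (limma adjusted p = 1), and its groups overlapped. Next in order were Unc50, which matches by name only, and Unc5b, at 2.22 ± 0.308 TPM after TS and 2.88 ± 0.138 TPM after P3_100. The tally was 4 without P3_100 replicate 1 (9.98% of all genes) and 1 in each of the other omissions.

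Beyond Rgma, the F test over 12 libraries ranked Sema6c (adjusted p = 0.00763, limma), Ntn1 (0.0136), Sema4a (0.0250), Epha4 (0.0257) and Sema3c (0.0503), followed by Sema4f (0.0722), Sema4g, Ephb2, Sema4c, Sema4b, Efna3 and Ephb6, which did not pass. With the replicate number as a block 9 genes passed (6.16% of all genes), the 5 above and Sema3c (adjusted p = 0.0368, limma), Sema4f (0.0303), Efna3 (0.0423) and Ephb6 (0.0478). Without the block, Rgma, Sema6c and Ntn1 passed with each of the 12 libraries left out. Sema4a passed in 4 of the 12 omissions and Epha4 in 2, those of IC replicate 2 and EV replicate 1. The number of genes past the FDR was 3 without IC replicate 1 and without replicate 2 or 3 of EV, P3_100 or TS, when 2.41% to 3.69% of all genes passed. IC replicate 2 and EV replicate 1 held the lowest Epha4 value of their groups. The same was so of many guidance genes, since 29 of the 64 (45.3%) were lowest in both IC replicate 2 and EV replicate 1 of their groups, against 32.4% of all genes tested.

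**Figure D4:**
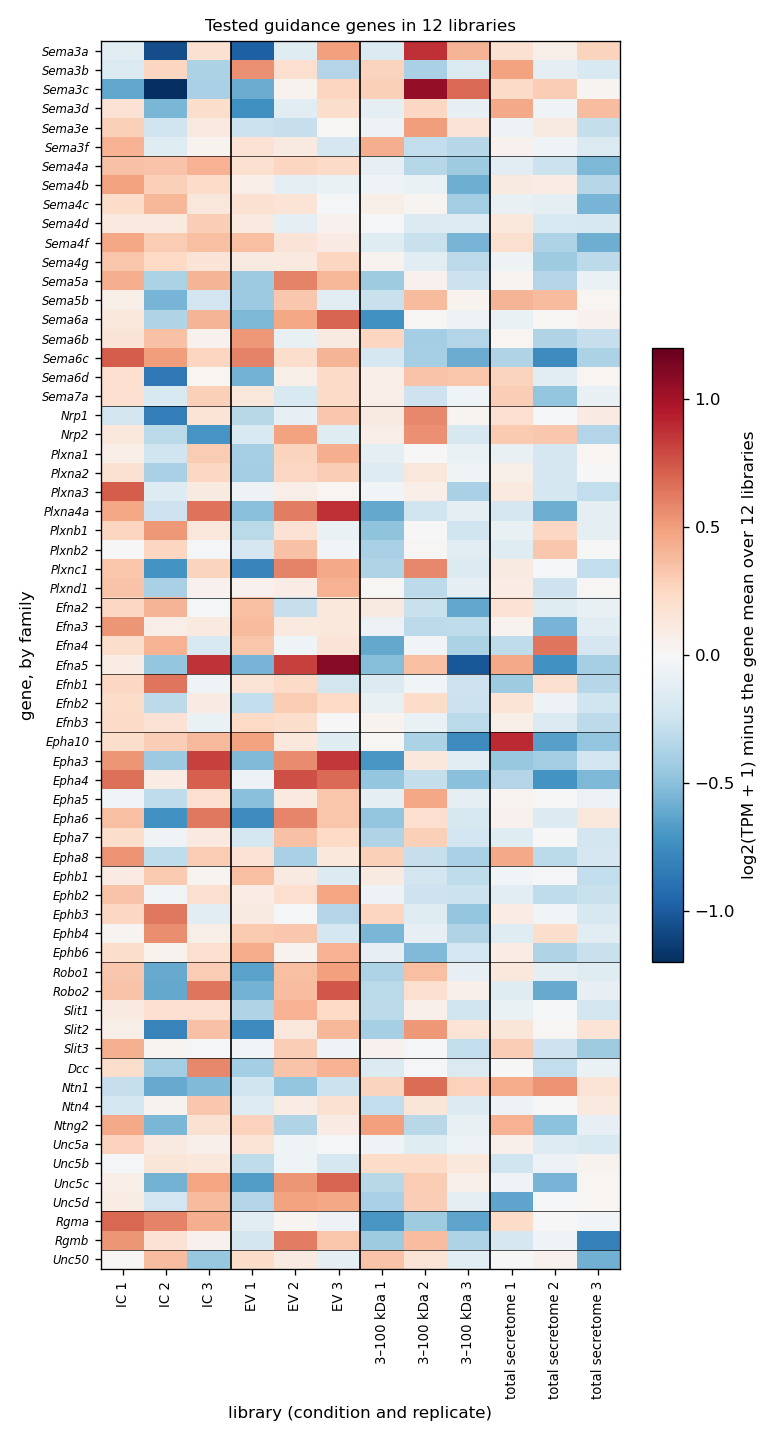
Each of the 64 tested genes (lines, by family) in the 12 libraries (columns), coloured by log2(TPM + 1) minus the mean of the gene over the libraries. IC replicate 2 and EV replicate 1 are blue in Robo1, Robo2, Slit2, Epha3 and Epha6, and Rgma, Sema6c and Epha4 change colour between IC and the P3_100 libraries.

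Genes around these ligands and receptors came from 2 lists chosen with earlier results of these data known. Of 37 other guidance receptors, adhesion co-receptors and ligands, 33 were tested. After P3_100, 3 of the 33 were higher (10.1% of all genes) and 3 lower (7.09%) at an unadjusted p under 0.05, and 1 was higher past the FDR (2.41% of all genes), the adhesion protein Flrt1, which rose from 9.96 ± 1.47 to 18.2 ± 2.91 TPM (log2 fold change 0.83, limma adjusted p = 0.0494). After TS, 2 were higher (9.91% of all genes) and 4 lower (6.97%) with 0 past the FDR in limma, and after EV 0 passed either threshold (2.97% of all genes at the unadjusted p). Neo1, which encodes neogenin, the receptor of Rgma, was at 111 ± 36.9 TPM in IC, 108 ± 29.6 TPM after EV, 87.6 ± 10.3 TPM after P3_100 and 87.2 ± 14.0 TPM after TS, a difference from IC that was smaller than the spread of IC.

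Of 53 genes of intracellular guidance signalling, 51 were tested. After P3_100, 7 of the 51 were higher (10.1% of all genes) and 4 lower (7.09%) at an unadjusted p under 0.05, and 2 rose past the FDR (2.41% of all genes). Vasp, an actin filament elongation factor of growth cones, went from 16.6 ± 1.87 to 39.5 ± 1.81 TPM (log2 fold change 1.23, limma adjusted p = 0.00729). Vav3, a signalling protein that acts downstream of Eph receptors, went from 2.75 ± 0.724 to 9.44 ± 2.46 TPM (log2 fold change 1.49, limma adjusted p = 0.0391). After TS, 7 were higher (9.91% of all genes) and 2 lower (6.97%), with Vav3 alone higher past the FDR (1.62% of all genes; log2 fold change 1.22, limma adjusted p = 0.0469) and Vasp at 29.6 ± 6.71 TPM (limma adjusted p = 0.108). After EV 1 was higher at an unadjusted p under 0.05, Vav3 (0.76, limma adjusted p = 1). Vasp kept its call after P3_100 in 3 of 6 omissions and lost it without IC replicate 1 (adjusted p = 0.0526, limma), P3_100 replicate 2 (0.0604) or P3_100 replicate 3 (0.0547). Vav3 kept its call after P3_100 only without P3_100 replicate 1 and after TS in 0 of 6 omissions, and Flrt1 in 0 of 6. On the log2 scale the list medians after P3_100 were −0.14 for the receptors and co-receptors and 0.02 for the signalling genes, against −0.02 for all genes.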

How the data were processed

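Each of the 12 libraries was measured by mRNA sequencing. According to the study's methods, the authors used FastQC for read quality, Trimmomatic and then Cutadapt for trimming, Salmon (mapping-based, decoy-aware) with the Ensembl rat transcripts for quantification, and tximport for values per gene. The build in the submitters' processing notes is Rnor_6.0. The deposited values carry no unit name. Each library sums to 1000000 and values are not whole, so they were read as TPM deposited by the authors. TPM keeps no depth, and no counting interval was possible. The labels describe a DNBSEQ strand-specific library and the study's methods a poly(A) library on a NextSeq instrument, which the values cannot decide.

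The count test of the study could not be applied to TPM. The 32285 rows were summed by gene name to 28111 names. Median-of-ratios factors, computed within each comparison, were used to rescale TPM. Genes with a mean of at least 1 TPM over the 12 libraries were kept (12861), and log2(TPM + 1) was fitted with limma 3.58.1 (lmFit and eBayes, trend on) under R 4.3.3, with the 6 libraries of a comparison per fit, Benjamini-Hochberg adjustment over all genes and an FDR threshold of 0.05. Fold changes are the first-named group minus the other. A moderated F test used all 12 libraries. The scripts were tested on simulated data.

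The genes and lists were chosen with earlier results of these data known. Named were, in each comparison, genes past the FDR or else the 4 of lowest p, genes with an unadjusted p under 0.05 in the F test, and the 2 most abundant in IC in each family. Pairing by replicate number was checked by correlating deviations from the group means. The correlations for replicates 1 to 3 were −0.05, −0.15 and 0.45 for EV and IC and −0.00, −0.21 and 0.21 for P3_100 and IC, so these pairs were not read as paired, although the supplement of the study treats day as a covariate for IC and EV without tying days to libraries in the sources used here. They were 0.22, 0.13 and 0.14 for TS and IC, 0.54, 0.24 and 0.26 for EV and P3_100, 0.24, 0.18 and 0.18 for EV and TS, and 0.34, 0.17 and 0.19 for TS and P3_100. These values lay above 0 but were mostly low, and EV replicate 1 correlated at 0.47 with IC replicate 2. A pairing by number was therefore not established, and the main fits used no block. Alternatives were other pseudocounts and filters, no rescaling, 1 fit of all libraries, no trend, the block and each library left out.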

Additional observations from a re-analysis of the deposited data

How the results depend on the processing

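The 43 fold changes of genes named for a pairwise comparison kept their direction in the alternatives run. After EV, the fold changes of Epha4 and Sema6c, which were near 0, turned with 1 library left out, and directions of genes named for their abundance were not followed. Of the pairwise fits that left out 1 library, 239 kept their side of the threshold, 4 newly passed it and 15 no longer passed it, and under other settings 321 kept it, 16 newly passed and 7 no longer passed. For the 13 genes of the F test, 134 omissions kept it, 4 newly passed and 18 no longer passed, and under other settings 86 kept it, 4 newly passed and 1 no longer passed. Omissions use fewer libraries, so power falls by construction. For the other moves the cause was not tested. Depth is unknown, so its limits cannot be given.

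Counts of guidance genes at an FDR under 0.05 moved as follows. Fitting all 12 libraries together gave 1 for EV against IC, 7 for P3_100 against IC, 6 for TS against IC and 2 for EV against P3_100, when 0.428%, 6.93%, 4.11% and 1.46% of all genes passed. TPM as deposited gave 1 for P3_100 (2.12% of all genes) and 0 for TS against IC (1.33%). For P3_100 against IC, no trend gave 3 (2.90%) and a filter of 1 TPM in 3 libraries gave 3 (3.30%), each time 1 higher and 2 lower. For TS against IC, a pseudocount of 0.1 gave 0 (1.42%), a filter of 0.1 TPM gave 0 (1.15%) and no trend gave 2 (1.97%). With the replicate block the counts were 0 for P3_100 (0.669%) and 0 for TS against IC (0.676%), and 9 in the F test (6.16%). For P3_100 and IC and for EV and IC, not every library correlated best with its own number, and whether the numbers mark shared days is not given in the sources used here. At an unadjusted p under 0.05, EV against IC had 2 with a pseudocount of 0.1 (2.97%) or 0.5 (3.00%), 2 with a filter of 0.1 TPM (3.52%), 2 with no trend (3.35%) and 3 with all 12 libraries (4.11%). With the block there were 20 for EV against P3_100 (20.4%) and 15 for EV against TS (9.84%). TS against P3_100 had 1 on TPM as deposited (2.34%), 1 with all 12 libraries (1.94%) and 1 with no trend (3.38%). The block changed no other count by over 1.5 times.

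With 1 library left out, counts at an FDR under 0.05 ranged from 0 to 2 for P3_100 against IC (0.529% to 2.85% of all genes), 0 to 1 for TS against IC (0.0311% to 2.93%), 0 to 1 for EV against P3_100 (0.0311% to 0.241%), 0 to 1 for EV against TS (0.0233% to 0.319%) and 3 to 6 in the F test (2.41% to 4.86%). At an unadjusted p they ranged from 1 to 3 for EV against IC (2.11% to 5.09%), 4 to 15 for EV against P3_100 (5.75% to 13.7%), 4 to 22 for EV against TS (4.10% to 21.4%) and 1 to 4 for TS against P3_100 (1.91% to 9.98%).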
